A study of Homo sapiens with 6 samples.

Results

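Some H3K27ac peaks lay over an H3K27me3 peak of the same small cell lung cancer (SCLC) line. These peaks, called dual peaks here, were selected on the deposited peak positions of both marks, by an overlap of 1 bp or more on chromosomes 1 to 22 and X. H69 had 308 dual peaks among its 38255 H3K27ac peaks and H69M had 795 among 51091. Merging overlapping peaks of both lines left 990 separate loci, of which 197 were dual in H69 only, 683 in H69M only and 110 in both lines. The question was what the same sites looked like in the other line. NCI-H69 (H69) is an established SCLC line, and H69M is a line derived from it in earlier work, known as mesenchymal-like. In each line chromatin was precipitated once with an antibody to H3K27ac and once with one to H3K27me3, no treatment is given in the labels, and each of the 4 lists comes from 1 library. Input libraries of both lines were not analysed here.

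H3K27ac and H3K27me3 are alternative modifications of the same lysine of histone H3, so a single histone tail can carry only one of them. Acetylation marks active promoters and enhancers. Trimethylation is the product of Polycomb repressive complex 2 and is found at silent genes, above all regulators of development. A dual peak from a population of cells can hold both marks on different tails, on different alleles or in different cells, and peak lists cannot tell these apart. Cell identity could not be checked against marker genes, because no gene annotation on the files' build, hg19, was used here and no peak was assigned to a gene.

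Each peak carried a score given by the authors, with a floor of 50 and a pile-up at 3100 in the H3K27ac lists, and its definition is not given in the sources used here. Read depth is unknown. H69M had more peaks of both marks than H69 (37853 against 21638 for H3K27me3), and more or wider peaks by themselves give more overlaps. With 1 library per group there is no replicate error and no p-value is given. Shares carry exact (Clopper-Pearson) 95% binomial intervals in brackets, which cover counting error only and treat neighbouring peaks as independent.

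Dual peaks were 0.805% of the H3K27ac peaks of H69 (0.718 to 0.900) and 1.56% of those of H69M (1.45 to 1.67), values fixed by the rule and given as a description. Their H3K27me3 peaks were 405 of 21638 in H69 (1.87%, 1.70 to 2.06) and 1325 of 37853 in H69M (3.50%, 3.32 to 3.69). Both marks together covered 90811 bp in H69 and 313343 bp in H69M. That was 1.85% and 3.94% of the length under H3K27me3 but only 0.189% and 0.408% of the length under H3K27ac. In 23043 bp both marks were listed in both lines. The shares rest mostly on weak peaks: with both marks limited to scores of 100 or more, 49 peaks in H69 (0.184%) and 219 in H69M (0.593%) were dual.

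A typical dual peak was a broad H3K27ac peak with a short H3K27me3 peak inside it. Short H3K27me3 peaks were usual in both lists, however. Over all H3K27me3 peaks the median length was 185 bp (H69) and 156 bp (H69M), and under dual peaks it was 203 and 180 bp. All H3K27ac peaks had medians of 966 and 1149 bp. The contrast in size thus held for the whole lists and was not particular to dual peaks. The H3K27me3 peak lay wholly inside the H3K27ac peak in 273 of 405 overlapping pairs in H69 (67.4%, 62.6 to 71.95) and in 1063 of 1328 in H69M (80.0%, 77.8 to 82.2). It crossed one end of the acetylated peak in 131 and 257 pairs, and it spanned the whole acetylated peak in 1 and 8. The stretch covered by both marks was short, with medians of 187.5 bp (H69) and 220.0 bp (H69M). The median share of the acetylated peak under both marks was 19.4% and 18.9%, and the longest stretches were 2659 and 7201 bp. More than 1 H3K27me3 peak lay under 67 dual peaks of H69 (21.8%, 17.3 to 26.8) and under 318 of H69M (40.0%, 36.6 to 43.5).

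The middle of the H3K27me3 peak showed no single preferred place along the acetylated peak. In H69, 20.2% of the pairs had it in the innermost 0.2 of the distance from the centre of the acetylated peak to its end and 17.3% between 0.8 and 1 of it. In H69M these shares were 18.98% and 12.8%. A further 14.1% and 8.13% had it beyond the end.

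The members covered the range of H3K27ac scores but not the top of the H3K27me3 scores. Their highest H3K27me3 score was 857 in H69, where the list reached 3233, and 1894 in H69M, where it reached 3100. In H69 the median H3K27ac score of dual peaks was 169 against 213 over all H3K27ac peaks, and in H69M it was 313 against 238. Dual peaks were also wider than the list as a whole, with a median width of 1062 bp against 966 bp in H69 and 1351 bp against 1149 bp in H69M. The H3K27me3 peaks beneath them had a median score of 69.7 against 66.9 over the H69 list and 75.3 against 65.0 over the H69M list. At the ceiling, with an H3K27ac score of 3100 or more, lay 8 dual peaks of H69 (of 3417 such peaks) and 56 of H69M (of 6023). The dual share was lower at the strongest acetylated peaks of H69, with 0.434% (0.311 to 0.588) at scores of 1000 or more and 0.968% (0.754 to 1.22) at 300 to 1000. In H69M it was 1.44% (1.24 to 1.65) and 2.20% (1.92 to 2.51) in these bands. These levels are part of the rule and describe the members only.

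**Figure D1:**
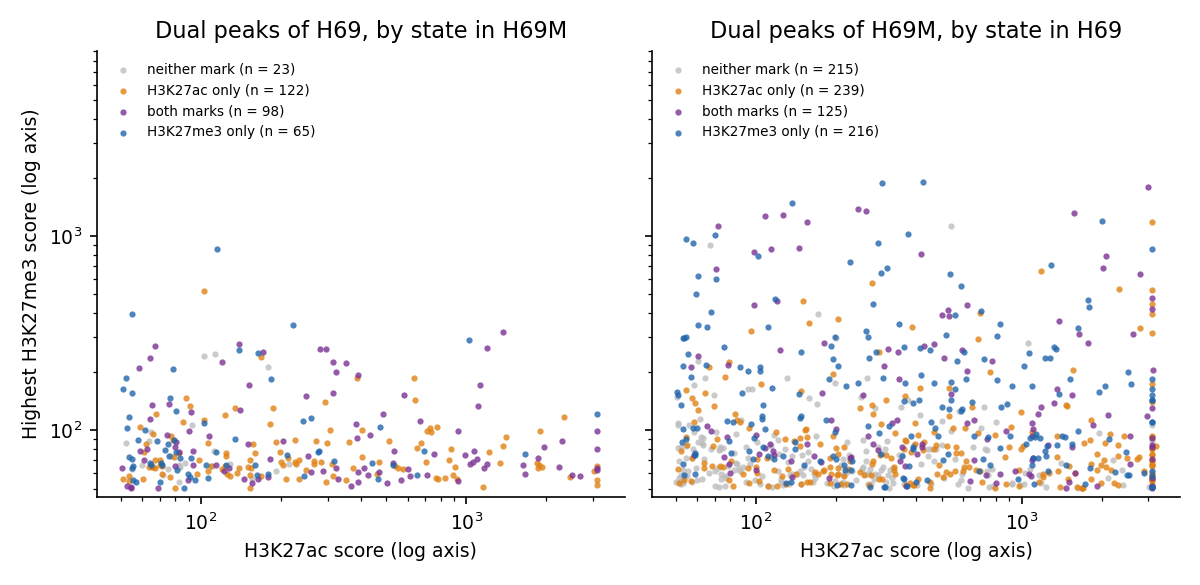
Each point is 1 dual peak of H69 (left) or H69M (right), by its H3K27ac score and the highest score of an H3K27me3 peak under it, both as listed by the authors and on log axes. Colours give the marks listed at the site in the other line, and the points at the right edge sit at the H3K27ac ceiling of 3100.

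Trimethylation at dual peaks was listed in the other line far more often than at other acetylated peaks. Of the 308 dual peaks of H69, 163 overlapped an H3K27me3 peak of H69M (52.9%, 47.2 to 58.6), against 471 of the other 37947 H3K27ac peaks (1.24%, 1.13 to 1.36) and a background of 1.66% over all of them. Of the 795 dual peaks of H69M, 341 overlapped an H3K27me3 peak of H69 (42.9%, 39.4 to 46.4), against 332 of the other 50296 (0.660%, 0.591 to 0.735) and a background of 1.32%. The H3K27me3 list of the other line was not used to choose these peaks, although both lines share one genome and one ancestor. Dual and other peaks were, however, split on H3K27me3 of the same line. Of all H3K27me3 peaks, 32.6% of those of H69 and 18.9% of those of H69M were listed in the other line. A wide gap between the groups was therefore set in advance, and these shares are a description.

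Acetylation was listed in the other line slightly less often at dual peaks than elsewhere. In H69, 220 dual peaks overlapped an H3K27ac peak of H69M (71.4%, 66.0 to 76.4), against 77.5% over all 38255 peaks. In H69M, 364 overlapped an H3K27ac peak of H69 (45.8%, 42.3 to 49.3), against 51.6% over all 51091. For both lines the interval of the dual peaks lay below the overall share, by a narrow margin. When the H69M lists were reduced to as many peaks as H69 had, keeping the highest scores, 65.3% (59.7 to 70.6) of the dual peaks of H69 were acetylated in the other line, against 71.5% of all its peaks. For H69M it was 49.8% (45.2 to 54.4) against 62.2%, a wider gap than with the full lists.

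**Figure D2:**
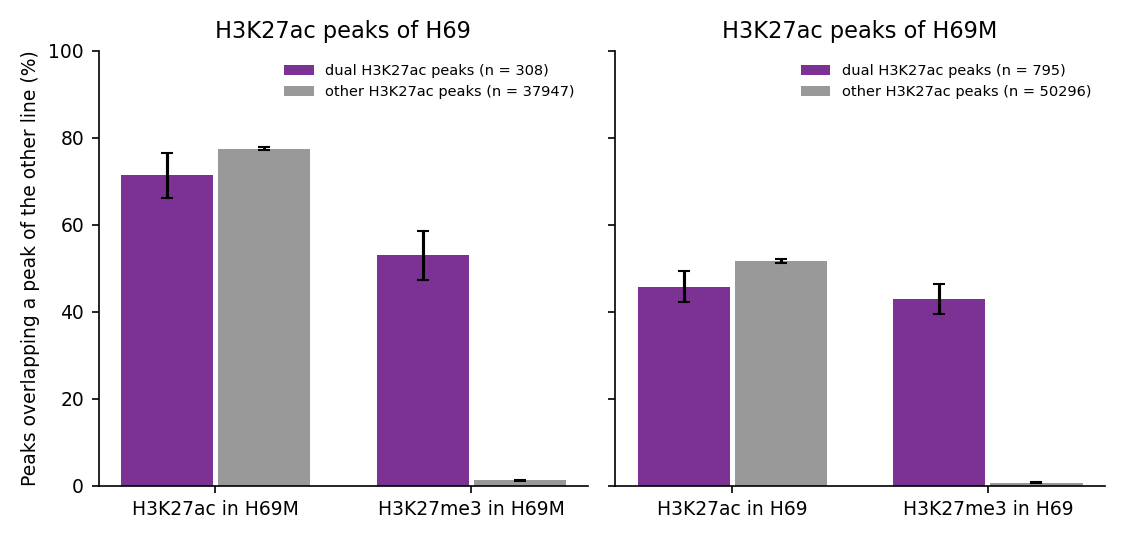
Bars give the percent of H3K27ac peaks of H69 (left) and H69M (right) that overlapped an H3K27ac or H3K27me3 peak of the other line, for dual peaks and for all other H3K27ac peaks, with exact 95% intervals. The bars for H3K27me3 stand at 52.9% and 42.9% for dual peaks and at 1.24% and 0.660% for the others.

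With all scores pooled, the H3K27me3 peaks under dual peaks were also listed in the other line more often than the rest. In H69 196 of 405 were (48.4%, 43.4 to 53.4), against 32.6% over all H3K27me3 peaks, and in H69M 433 of 1325 were (32.7%, 30.2 to 35.3), against 18.9%. They lay on acetylated ground of the other line in 274 cases in H69 (67.7%, 62.9 to 72.2, background 4.63%) and in 496 cases in H69M (37.4%, 34.8 to 40.1, background 2.78%). The rule placed them on H3K27ac of their own line, so a share above this background was set in advance. Of all H3K27ac peaks, 77.5% of those of H69 and 51.6% of those of H69M were listed in the other line.

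Most dual peaks carried a single mark, or none, in the other line. In H69M, 122 of the 308 dual peaks of H69 had H3K27ac only (39.6%, 34.1 to 45.3), 98 had both marks (31.8%, 26.7 to 37.3), 65 had H3K27me3 only (21.1%, 16.7 to 26.1) and 23 had neither (7.47%, 4.79 to 10.99). In H69 the 795 dual peaks of H69M divided more evenly. There 239 had H3K27ac only (30.1%, 26.9 to 33.4), 216 had H3K27me3 only (27.2%, 24.1 to 30.4), 215 had neither (27.04%, 24.0 to 30.3) and 125 had both (15.7%, 13.3 to 18.4). Among the other H3K27ac peaks, 21.9% (21.5 to 22.3) had neither mark in the other line for H69 and 47.9% (47.5 to 48.4) for H69M. With all scores pooled, sites without a mark were less frequent at dual peaks in both lines, but not at strong peaks of H69M. Such sites lack H3K27me3 in the other line, and dual and other peaks were split on H3K27me3. A lower pooled share at dual peaks was therefore set in advance, and it is a description. Both marks were found at 0.654% (0.575 to 0.740) of the other peaks of H69 and 0.258% (0.216 to 0.307) of those of H69M, and H3K27me3 only at 0.588% (0.513 to 0.670) and 0.402% (0.348 to 0.461). H3K27ac only was found at 76.9% (76.4 to 77.3) of the other peaks of H69 and 51.4% (51.0 to 51.8) of those of H69M.

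The state in the other line varied with the strength of acetylation, at dual and at other peaks. In H69, none of the 110 dual peaks with an H3K27ac score of 300 or more lacked both marks in H69M, which allows up to 3.30%, against 2.67% of the other peaks. Under a score of 100, 14 did (13.7%, 7.71 to 21.96), against 48.2% (47.3 to 49.1) of the other peaks. In this band 52.0% of the dual and 51.1% of the other peaks were acetylated in H69M. H3K27me3 was listed there at 57.8% and 0.936%. The groups were split on H3K27me3, so this gap in sites without a mark was set in advance. At scores of 1000 or more, 22 of 41 dual peaks carried both marks in H69M and 16 carried H3K27ac only. The 3 others had H3K27me3 only.

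Strong dual peaks of H69M stood out by how seldom they were acetylated in H69. Of its 194 dual peaks with an H3K27ac score of 1000 or more, 117 were acetylated in H69 (60.3%, 53.1 to 67.2), against 93.9% (93.5 to 94.3) of the other peaks in this score band. In 57 of the 194 the site carried H3K27me3 only in H69 (29.4%, 23.1 to 36.3). A low share was also found outside the dual set, at H69M peaks on H3K27me3 of H69. Of these, 69 of 108 in this band were acetylated in H69 (63.9%, 54.1 to 72.9). Of the dual peaks in this band, 101 lay on H3K27me3 of H69, and 44 of them were acetylated there. Off H3K27me3 of H69, 73 dual peaks were acetylated in H69 and 20 were not. Of the other peaks off it, 94.2% (93.8 to 94.6) were acetylated. In this band the share was thus lower at dual peaks both on and off H3K27me3 of H69. At 300 to 1000, on H3K27me3 of H69, 35 of 98 dual peaks and 32.9% (22.9 to 44.2) of the other peaks were acetylated. For scores of 300 to 1000 the shares acetylated in H69 were 46.9% (40.1 to 53.9) for dual and 63.1% (62.2 to 64.1) for other peaks. At the weak end the order turned: under a score of 100 it was 31.7% (24.7 to 39.4) for dual and 20.2% (19.5 to 20.8) for other peaks. The pooled value for H69M, close to its background, therefore joins a higher share at weak peaks and a lower one at strong peaks.

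The dual peaks of H69 did not show such a crossing. Under a score of 100, 52.0% of the dual (41.8 to 61.96) and 51.1% of the other peaks (50.2 to 52.0) were acetylated in H69M, and at 1000 or more 92.7% (80.1 to 98.5) and 99.4% (99.2 to 99.6). Only in this highest band did the intervals of dual and other peaks separate.

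**Figure D3:**
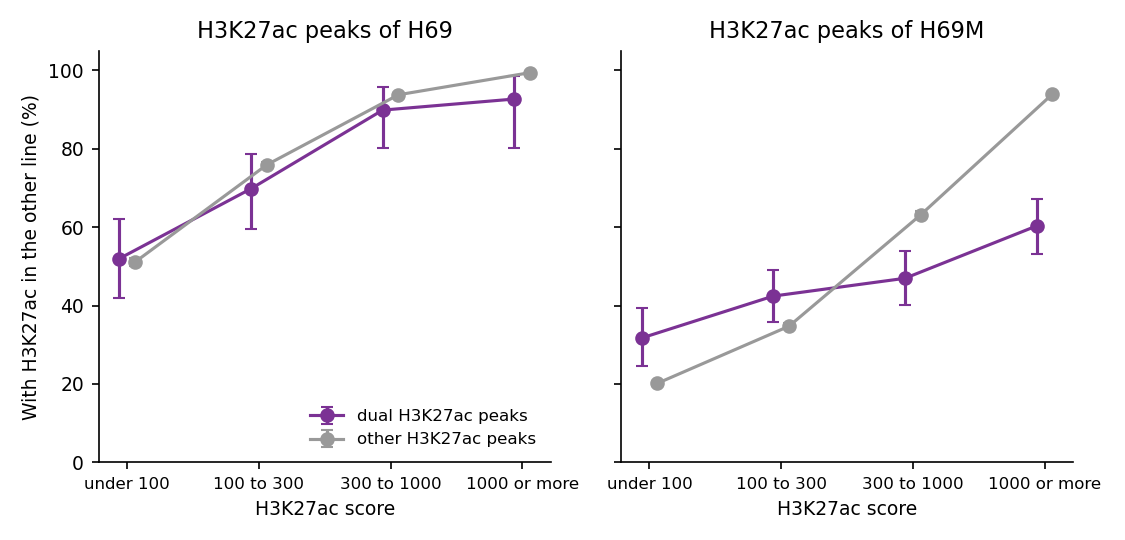
Points give the percent of H3K27ac peaks that overlapped an H3K27ac peak of the other line, by the authors' H3K27ac score, for dual and for other peaks of H69 (left) and H69M (right), with exact 95% intervals. At a score of 1000 or more, 60.3% of the dual and 93.9% of the other H69M peaks were acetylated in H69.

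Strong trimethylation at a dual peak went with trimethylation at the site in the other line. The dual peaks of H69M with an H3K27me3 score under 75 had H3K27me3 only in H69 in 52 of 354 cases (14.7%, 11.2 to 18.8) and neither mark in 137 (38.7%, 33.6 to 44.0). With a score of 300 or more, 39 of 84 had H3K27me3 only (46.4%, 35.5 to 57.6), 27 had both marks (32.1%, 22.4 to 43.2) and 3 had neither (3.57%, 0.743 to 10.1). In H69 few dual peaks had strong H3K27me3. Of the 24 with a score of 200 or more, 12 had both marks in H69M, 7 had H3K27me3 only, 3 had neither and 2 had H3K27ac only.

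The same dependence on the score exists in the list as a whole. Of the H69M H3K27me3 peaks outside dual peaks, 10.8% (10.4 to 11.2) of those with a score under 75 and 84.1% (81.5 to 86.4) of those at 300 or more were listed in H69. Under dual peaks the shares were 18.6% (15.7 to 21.8) and 75.6% (65.4 to 84.0). In H69M the share was higher under dual peaks in each band below a score of 200, while above it the intervals overlapped.

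**Figure D4:**
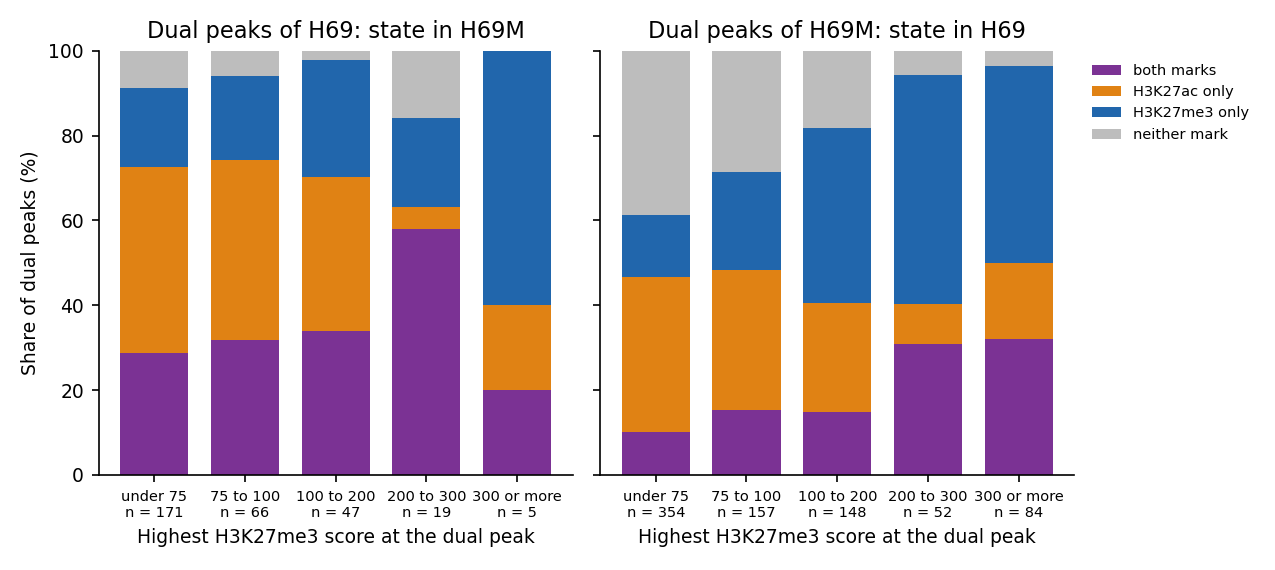
Stacked bars give the percent of dual peaks in each state in the other line, by the highest H3K27me3 score at the dual peak, for H69 (left) and H69M (right), with the number of dual peaks under each bar. In H69M the share with neither mark in H69 went from 38.7% under a score of 75 to 3.57% at 300 or more.

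At the 216 dual peaks of H69M that carried H3K27me3 only in H69, acetylation was listed in the derived line over H3K27me3 peaks of both lines. Whether these H3K27me3 peaks covered the same bases in both lines was not examined. The highest H3K27me3 score at each site had a median of 101 in H69 and 129 in H69M. A highest score is often taken over several peaks, and at sites chosen for the mark, so it is not comparable with the median of a whole list. Scores of lists of different length show no change between the lines. Their H3K27ac was of ordinary strength, with a median score of 368, from 50.6 to 3100, and 12 of the 216 sat at the ceiling.

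The strongest trimethylated sites of this kind lay on chromosomes 8, 18 and 22. The dual peak of H69M with the highest H3K27me3 score of all, 1894, lay at chromosome 8 53853030 to 53854527, with an H3K27ac score of 427. In H69 the site had H3K27me3 with a score of 174 and no H3K27ac peak. At chromosome 18 19749169 to 19751749 H3K27me3 was among the strongest peaks of both lists, with a score of 1872 in H69M and 1576 in H69. Acetylation there had a score of 299 and was listed in H69M only, and the site lies within 2 Mb of a stretch without H3K27ac peaks. The third site, chromosome 22 17517627 to 17518565, had H3K27me3 scores of 1480 in H69M and 231 in H69, and its weak H3K27ac peak (137) lay wholly under H3K27me3.

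The counterpart in H69 was smaller and weaker in acetylation. The 65 dual peaks of H69 with H3K27me3 only in H69M had a median H3K27ac score of 91.3, and 35 of them were under 100. The one with the strongest H3K27me3, at chromosome 1 148853973 to 148855534, had an H3K27ac score of 116 and H3K27me3 scores of 857 in H69 and 2133 in H69M. Next came chromosome 12 132974011 to 132974583, with H3K27ac at 55.3, just above the floor, and H3K27me3 at 397 in H69 and 513 in H69M. At chromosome 9 139084396 to 139085663 the H3K27ac score was 223 and H3K27me3 stood at 349 and 321.

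Where the other line had H3K27ac only, trimethylation at the dual peak was mostly weak, as it was at dual peaks in general. The median of the highest H3K27me3 score was 68.4 at the 122 such peaks of H69 and 71.5 at the 239 of H69M. Over all dual peaks it was 70.5 and 80.7. A strong exception was the H69 peak at chromosome 13 110438209 to 110439022, with an H3K27me3 score of 520 and an H3K27ac score of 103, whose site had an H3K27ac score of 2120 in H69M. The acetylated peak of H69M there overlapped H3K27me3 of its own outside the bases of the H69 peak, so the locus was dual in both lines. The H69 peaks at chromosome 19 5339651 to 5340936 (H3K27me3 239) and chromosome 7 126891650 to 126894132 (H3K27me3 187) had H3K27ac scores of 169 and 387 in H69 and lay under peaks at the ceiling of 3100 in H69M, with no H3K27me3 listed.

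In the opposite direction the dual peak of H69M at chromosome 21 36260072 to 36264028 was the strongest. It combined an H3K27ac score of 3100 with 6 H3K27me3 peaks of up to 1180 that covered 2945 of its 3957 bp. H69 had H3K27ac there with a score of 334 and no H3K27me3. At chromosome 9 68376587 to 68378115 H3K27ac had scores of 1182 in H69M and 1123 in H69, and H3K27me3 was listed in H69M only, with a score of 661. At chromosome 14 92979632 to 92980653 the scores were 274 and 607 for H3K27ac and 571 for H3K27me3 in H69M.

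Dual peaks with neither mark in the other line were the weakest group in H3K27ac. Their median H3K27ac score was 83.5 for the 23 in H69 and 171 for the 215 in H69M. The strongest in H3K27me3 were chromosome 5 153857275 to 153857984 (score 246), chromosome 5 78365109 to 78365702 (240) and chromosome 15 40574181 to 40575718 (212) in H69. In H69M they were chromosome 21 11168858 to 11170748 (1126), chromosome 10 127583941 to 127585356 (894) and chromosome 9 68454654 to 68455951 (394). The first of these H69M sites borders the longest stretch of chromosome 21 that has no H3K27ac peak.

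Sites dual in both lines were a minority. Of the 308 dual peaks of H69, 111 overlapped a dual peak of H69M (36.04%, 30.7 to 41.7), and 112 of the 795 dual peaks of H69M overlapped one of H69 (14.1%, 11.7 to 16.7). In 77 of these the very bases under both marks coincided in part between the lines. With scores of 100 or more required of every peak, 18 of 49 dual peaks of H69 were dual in both lines.

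The longest of these sites were on chromosome 1. At 228744641 to 228746951 H69 had 1405 bp under both marks, with H3K27ac at 58.7 and H3K27me3 at 209. The H69M peak over it, 228743808 to 228751360, had 7201 bp under both, with H3K27ac at 72.3 and H3K27me3 at 1126. At 148927813 to 148931848 H69 had 1494 bp under both marks, with H3K27ac at 140 and H3K27me3 at 127, while H69M had 4359 bp and scores of 1573 and 1310. The site at chromosome 12 31269712 to 31274158 had H3K27ac at the ceiling in both lines and H3K27me3 at 79.5 in H69 and 479 in H69M. Chromosome 9 66456898 to 66458902 was similar, with H3K27ac at 3100 and 2989 and H3K27me3 at 62.1 and 1796. Both of these lay within 2 Mb of the longest gap between H3K27ac peaks on their chromosome.

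Other sites dual in both lines differed in which mark scored high. At chromosome 11 2290588 to 2291922 nearly the whole acetylated peak of H69 was under H3K27me3 (96.3%), with H3K27ac scores of 140 in H69 and 108 in H69M and H3K27me3 scores of 278 and 1272. At chromosome 3 186648134 to 186650134 H3K27ac stood at 392 and 2031 and H3K27me3 at 192 and 686. At chromosome 7 98245863 to 98247881 H3K27ac stood at 583 and 1184 and H3K27me3 at 151 and 132. On chromosome 2 the H3K27ac score was the higher one in H69 at 90447926 to 90450944 (1200 and 595), at 91669362 to 91671558 (1368 and 417) and at 133110338 to 133111395 (313 and 127). H3K27me3 scores at these 3 sites were 265, 319 and 225 in H69 and 258, 804 and 1283 in H69M.

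Dual peaks had H3K27me3 neighbours more often, and H3K27ac neighbours less often, than other H3K27ac peaks. A further H3K27me3 peak of the same line, apart from those overlapping, was listed within 10 kb of 166 dual peaks of H69 (53.9%, 48.2 to 59.6) and of 497 of H69M (62.5%, 59.0 to 65.9). Other acetylated peaks had such a neighbour in 4.91% (4.70 to 5.13) and 4.74% (4.55 to 4.93) of cases. These shares use the H3K27me3 list that chose the peaks and are a description. Most H3K27me3 peaks have such neighbours: 75.7% (75.1 to 76.2) of those outside dual peaks in H69 and 85.3% (84.9 to 85.6) in H69M had another within 10 kb, against 70.4% (65.7 to 74.8) and 83.4% (81.3 to 85.4) of those under dual peaks. In the H3K27me3 list of the other line a neighbour was found for 55.5% (49.8 to 61.2) of the dual and 5.67% (5.44 to 5.91) of the other peaks of H69. For H69M it was 48.3% (44.8 to 51.8) and 5.45% (5.25 to 5.65). The rule did not use that list, but the lists of the lines share peaks, so these shares are a description too.

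A further H3K27ac peak of the same line lay within 10 kb of 37.7% of the dual peaks of H69 (32.2 to 43.3) and 47.8% of those of H69M (44.3 to 51.3), against 63.0% (62.5 to 63.5) and 67.5% (67.1 to 67.9) of other peaks. In the H3K27ac list of the other line the gap was wider for H69M. An H69 peak was listed within 10 kb of 21.6% (18.8 to 24.7) of its dual peaks and 46.4% (45.9 to 46.8) of its other peaks. For H69 the shares were 43.2% (37.6 to 48.9) and 60.0% (59.5 to 60.5). Dual peaks thus had an acetylated neighbour less often than other peaks, in each line and by each list.

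Dual peaks were also more frequent beside the longest gap between H3K27ac peaks of each chromosome, which holds the centromere on most but not all chromosomes. Within 2 Mb of it lay 18 of the dual peaks of H69 (5.84%, 3.50 to 9.08) and 48 of H69M (6.04%, 4.48 to 7.93), against 2.996% (2.83 to 3.17) and 2.99% (2.85 to 3.15) of the other H3K27ac peaks. The H3K27me3 peaks gave no such order in both lines, with 6.67% (4.44 to 9.55) of those under dual peaks and 2.67% (2.46 to 2.90) of the others in H69, and 5.89% (4.68 to 7.29) and 7.68% (7.41 to 7.95) in H69M. Without the peaks near these gaps 71.0% of the remaining dual peaks of H69 were acetylated in H69M and 52.4% trimethylated, and for H69M the shares in H69 were 45.8% and 43.5%.

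Chromosome 21 had the highest dual share in both lines, 9 of 520 H3K27ac peaks in H69 (1.73%, 0.794 to 3.26) and 36 of 687 in H69M (5.24%, 3.70 to 7.18). In H69M its interval lay above those of the next chromosomes in rank. Chromosome 19 followed with 48 of 1773 (2.71%, 2.00 to 3.57) and chromosome 17 with 65 of 2682 (2.42%, 1.88 to 3.08). In H69 the interval of chromosome 21 overlapped those of chromosome 18 (1.42%, 0.799 to 2.34) and chromosome 19 (1.36%, 0.867 to 2.04). Of the 36 dual peaks on chromosome 21, H69 had H3K27me3 only at 12, neither mark at 11, H3K27ac only at 8 and both marks at 5. Chromosome 4 was at the low end, with no dual peak among 1121 H3K27ac peaks in H69, which allows a share of up to 0.329%, and 8 of 2006 in H69M (0.399%, 0.172 to 0.784). The number of H3K27me3 peaks differed widely as well, with 886 on chromosome 21, 5003 on chromosome 19 and 808 on chromosome 4 in H69M, and the part of this in the dual shares was not tested.

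**Figure D5:**
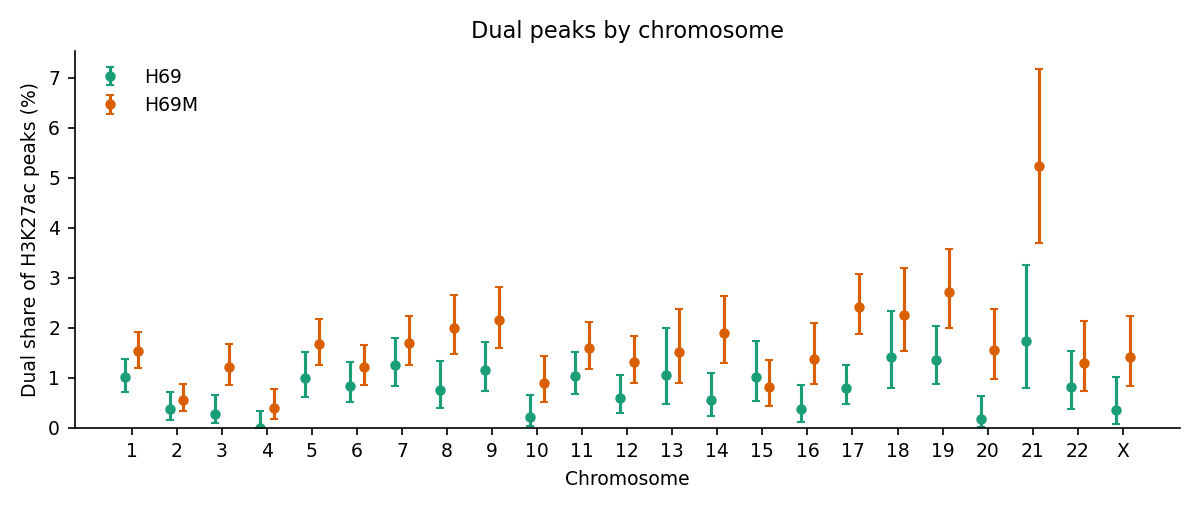
Points give the percent of the H3K27ac peaks of each chromosome that were dual in H69 and in H69M, with exact 95% intervals. Chromosome 21 stands highest in both lines, at 1.73% in H69 and 5.24% in H69M.

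Most dual peaks stood alone. The 308 of H69 fell into 290 groups when peaks within 50 kb were joined, 278 of them of a single peak, and the 795 of H69M into 680 groups, 593 of a single peak. The 1 Mb bins with most dual peaks in H69M were chromosome 21 from 46 to 47 Mb (10 of 54 H3K27ac peaks) and from 47 to 48 Mb (9 of 28), near the end of the long arm. That stretch is known to hold genes of type VI collagen, a matrix protein, beside many others. In H69 the same bins held 2 and 1 dual peaks. In the bin from 46 to 47 Mb the H3K27ac scores of the H69M dual peaks ran from 60.6 to 3100 with a median of 1035, and 4 of the 10 had H3K27me3 only in H69.

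Both lines had many dual peaks on chromosome 1 from 148 to 149 Mb, 6 of 10 H3K27ac peaks in H69 and 7 of 10 in H69M, in a part of the long arm known for duplicated gene families. From 161 to 162 Mb 5 of 24 H3K27ac peaks in H69 and 7 of 40 in H69M were dual. Among them were runs of 4 and 5 peaks at 161416923 to 161441287 and 161409642 to 161441006, in a stretch known to hold a cluster of transfer RNA genes. H3K27me3 scores ran from 51.6 to 77.8 at the run of H69 and from 149 to 1339 at that of H69M, each within its own list. Chromosome 11 from 2 to 3 Mb, known for imprinted genes, held 5 among 46 H3K27ac peaks in H69 and 6 among 45 in H69M.

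The run of 5 dual peaks of H69 on chromosome 1 from 228744641 to 228782636 lies where the tandem array of 5S ribosomal RNA genes is known to be. Its H3K27ac scores were low, from 51.1 to 139, and its H3K27me3 scores ranged from 163 to 259. In H69M 4 of the 5 sites had H3K27me3 only and 1 had both marks. It included the longest stretches of both marks in H69, 2659 bp at 228771440 to 228775982 and 1887 bp at 228769194 to 228771396. Reads from copies of a repeat can be assigned to the wrong copy, and the sources used here do not say how such reads were treated.

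In the windows around known gene clusters the dual peaks were too few to tell their share from that of the whole list (0.805% in H69 and 1.56% in H69M). Only in the HOXC window of H69M did the interval begin above that share, at 1.95%. Of the 4 dual peaks there, 3 lay in a group within 50 kb, and the interval treats neighbouring peaks as independent, so this is no firm exception. HOX genes encode homeobox factors of embryonic patterning and are classic Polycomb targets. The HOXA window had 29 H3K27ac and 31 H3K27me3 peaks in H69 and 30 and 33 in H69M, and no dual peak in either line. The HOXD window had no H3K27me3 peak in either line and therefore no dual peak. The HOXB window had 2 dual peaks among 79 H3K27ac peaks in H69 (2.53%, 0.308 to 8.85), at chromosome 17 46696414 to 46697312 and 46723161 to 46725219, and none among 77 in H69M, which allows up to 4.68%. Both sites had H3K27ac only in H69M, and their H3K27ac scores were 134 and 783 in H69 and 275 and 3100 in H69M.

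The HOXC window had no dual peak among 57 H3K27ac peaks in H69, which allows up to 6.27%, and 4 among 57 in H69M (7.02%, 1.95 to 17.004). The first, at chromosome 12 54333156 to 54333865, had strong H3K27me3 in both lines (784 in H69M and 398 in H69) and a weak H3K27ac peak (102) in H69M only. The next 3 lay close together from 54806418 to 54827348, in the window but beyond the HOXC genes themselves. At 2 of them H3K27ac was at the ceiling in H69M, and H69 had weak H3K27me3 only (65.4 and 61.0).

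In the MHC window, which holds the genes that present antigen to T cells, H69 had 2 dual peaks among 200 H3K27ac peaks (0.121 to 3.57%) and H69M had 5 among 186 (2.69%, 0.878 to 6.16). One locus was dual in both lines, at 31239036 to 31240225 in H69, with H3K27ac at 234 in H69 and 802 in H69M and weak H3K27me3 (55.8 and 53.4). The overlap in H69M was 3 bp. At 3 dual peaks of H69M the site had H3K27me3 only in H69. They were 30457312 to 30457947, with an H3K27ac score of 93.1, 32811231 to 32812558, with 484, and 33489150 to 33490037, with 117. The protocadherin window, with its adhesion genes of neurons, had 1 dual peak in each line, among 24 and 26 H3K27ac peaks, at different places, and neither site carried a mark in the other line.

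At the limit of the rule, the shortest overlaps were 1 bp in H69 (chromosome 3 32857849 to 32858976, H3K27ac 226 and H3K27me3 68.2) and 2 bp in H69M (chromosome 17 80314434 to 80317296, 520 and 61.2). The nearest peaks outside it were 1 bp from an H3K27me3 peak in H69 (chromosome 20 3219067 to 3220375, 149 and 66.2) and 3 bp in H69M (chromosome 14 54422734 to 54423646, 98.6 and 56.9). Within 200 bp of an H3K27me3 peak, without touching it, lay 57 further H3K27ac peaks in H69 and 79 in H69M.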

How the data were processed

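ChIP-seq peak lists of H3K27ac and H3K27me3 in H69 and H69M were analysed, 1 list per library. Peaks are on hg19, and Bowtie2 and SAMtools 0.1.19 were used, per the submitters' processing notes. Peak names in the deposited lists carry the word MACS, and the sources used here do not give its version, its settings or how the inputs entered. The deposited score of each peak was used, as the authors' own value, only to describe, rank or band peaks. Depth is unknown, so a list may be longer because it is deeper. Peaks on chromosome Y and on unplaced contigs entered no comparison. Overlaps of 1 bp or more were computed with numpy 2.4.6 and pandas 2.3.3 and intervals with scipy 1.17.1, and the overlap code was tested on simulated data. The state of a dual peak is that of the whole H3K27ac peak in the other line. Coordinates are 1-based. The longest gap of a chromosome was taken between neighbouring H3K27ac peaks of both lines together.

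The members, windows and alternatives were chosen with earlier results of these data known. Named regions are, per line, the 5 dual peaks with the highest H3K27me3 score, the 5 with the longest stretch of both marks, the 3 with the highest H3K27me3 score in each state, the 5 bins of 1 Mb with most dual peaks, the 10 longest sites dual in both lines, and the windows. Of these a part is printed. Which gene families to mention for a bin was decided after its values were seen, from general knowledge of these chromosome bands. Gene lists and cell type markers that need an annotation on hg19 were not used here.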

Additional observations from a re-analysis of the deposited data

Results flagged for a closer look

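Dual peaks also occurred on unplaced contigs, which entered no comparison. H69 had 4 among 26 H3K27ac peaks there (15.4%, 4.36 to 34.9) and H69M had 17 among 59 (28.8%, 17.8 to 42.1). On chromosomes 1 to 22 and X the shares were 0.805% and 1.56%. The contigs held more H3K27me3 peaks (65 and 607) than H3K27ac peaks, unlike chromosomes 1 to 22 and X together, and the part of this in the shares was not tested.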

How the results depend on the processing

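Of 49 values recomputed under 8 alternatives, 34 stayed within the interval of the reported value (counts within 1.5 times) and 15 moved. With scores of 100 or more in all lists, the dual share was 0.184% in H69 and 0.593% in H69M, 59.2% of the H69 dual peaks had H3K27me3 in H69M, 41.1% and 39.3% of the H69M dual peaks had H3K27ac and H3K27me3 in H69, and 18 H69 dual peaks were dual in both lines. With equal numbers of peaks the dual share of H69M was 1.24%, 65.3% of the H69 dual peaks were acetylated in H69M, and 49.8% and 53.0% of the H69M dual peaks had H3K27ac and H3K27me3 in H69. With only the bases under both marks as the site, 45.5% of the H69 dual peaks had H3K27me3 in H69M, and 40.9% and 34.6% of the H69M dual peaks had H3K27ac and H3K27me3 in H69. With a peak within 1000 bp sufficient, H3K27me3 was found at 60.4% of the H69 and 51.3% of the H69M dual peaks. Overlaps of 100 bp, 50% of the H3K27me3 peak inside, leaving out peaks near the longest gap, and counting dual peaks within 50 kb once (added after the data were seen) moved none of their values. The unknown depth, the single libraries and the treatment of repeats by the aligner limit every value.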

Other observations

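H3K27me3 peaks of H69 that lay on no H3K27ac of H69 could be followed by whether H69M listed H3K27ac there. Where it did, 323 of 728 still had H3K27me3 listed in H69M (44.4%, 40.7 to 48.1). Where it did not, 6532 of 20505 had it (31.9%, 31.2 to 32.5). The shares were 30.4% (25.7 to 35.3) and 22.7% (21.97 to 23.4) for H3K27me3 scores under 75, 35.1% (27.96 to 42.7) and 36.01% (34.6 to 37.5) for 75 to 100, and 72.2% (63.5 to 79.8) and 64.3% (62.3 to 66.3) for 100 to 200. At 200 to 300 they were 32 of 32 peaks and 93.3% (89.8 to 95.8), and at 300 or more 28 of 30 (93.3%, 77.9 to 99.2) and 99.6% (97.7 to 99.99). The intervals stood apart only under a score of 75.

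The opposite comparison gave another picture. H3K27me3 peaks of H69M on no H3K27ac of H69M had H3K27me3 in H69 in 96 of 555 cases where H69 listed H3K27ac (17.3%, 14.2 to 20.7) and in 6643 of 35973 where it did not (18.5%, 18.1 to 18.9). In each of the 5 score bands the first share was the lower one, with 19.05% (12.6 to 27.003) against 36.5% (35.1 to 37.9) for scores of 100 to 200 and 54.5% (40.6 to 68.0) against 86.0% (83.5 to 88.2) at 300 or more. H3K27ac peaks of H69 on no H3K27me3 of H69 were acetylated in H69M in 248 of 471 cases where H69M listed H3K27me3 (52.7%, 48.0 to 57.2) and in 77.8% (77.4 to 78.2) of the 37476 others. For H3K27ac peaks of H69M on no H3K27me3 of H69M, 130 of 332 were acetylated in H69 where H69 listed H3K27me3 (39.2%, 33.9 to 44.6). Of the 49964 others 51.8% (51.3 to 52.2) were. The difference between the directions was not tested.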
